A study of Homo sapiens with 24 samples.

Results

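The 10 genes described here are CTGF, CYR61 and ANKRD1, AMOTL1 and AMOTL2, AJUBA, DLC1, LATS2, YAP1 and TEAD1, out of 48162 genes in the count table. They were found by symbol, and each has 1 row. They were chosen by their LCL521 differences and their place in YAP signalling, with those differences already known, so their values with and without LCL521 are given as a description without a test. The libraries came from PPC1, a human prostate cancer cell line, in 4 conditions of 6 libraries, and the whole experiment was done 6 times with all conditions harvested in parallel. Parental cells were plated on day 1 and harvested on day 5 without further treatment. Parental cells with LCL521 received 5 µM of this acid ceramidase inhibitor for 5 hours before harvest. Polyploid giant cancer cells (PGCC) received 8 Gy of radiation on day 2, and on day 5 they were harvested and captured on a 20 micron strainer, and PGCC with LCL521 had both the radiation and the drug. The labels name no vehicle for the conditions without LCL521. Parental cells were neither irradiated nor passed through the strainer, so radiation, polyploidy and size selection cannot be told apart in any difference between PGCC and parental cells.

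YAP is a transcriptional co-activator that has no DNA-binding domain of its own and reaches its target genes through the TEAD factors. The Hippo kinases LATS1 and LATS2 phosphorylate YAP and keep it in the cytoplasm, and angiomotin family proteins and Ajuba tie this switch to cell junctions and the actin cytoskeleton. CTGF, CYR61 and ANKRD1 are the target genes most often used as a readout of YAP and TEAD, and several brakes on YAP, AMOTL2 and LATS2 among them, are themselves target genes and form a feedback.

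Total counts lay between 14835246 and 19906601 per library. Levels are given as CPM, a gene's counts per 1000000 counts of its library after TMM scaling, and differences as differences in log2 CPM with a prior count of 2. A count of 3 corresponded to between 0.150 and 0.208 CPM. Of the epithelial markers, the keratins KRT8, KRT18 and KRT19 were high in every library, with at least 50.6 CPM. EPCAM and CDH1 were low, at 0 to 0.852 CPM and 1.06 to 6.50 CPM. The prostate luminal markers KLK3, KLK2 and FOLH1 had no count in any library and TMPRSS2 had at most 2 counts. The 8 libraries of replicates 4 and 5 stood apart from the other 16 on the second principal component, which held 16.5% of the variance. The labels name no batch, so values for replicates 4 and 5 are given beside those for the other 4 where the difference between these sets is large.

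Promoter sequence was matched for 7 of the 10 genes in RefSeq (GRCh38.p14), CTGF under its current symbol CCN2. Each window ran from 250 bases before the transcription start to 50 bases after it. The letters bound by TEAD factors, GGAATG or CATTCC on the other strand, were found in 6 of these 7 genes and in 6 of their 9 windows, against 14% of all 35116 windows in the table. The AP-1 letters TGANTCA, searched on both strands, were found in ANKRD1 alone of the 7, against 7.71% of all windows, and did not overlap the TEAD letters. CTGF held 3 copies of the TEAD letters, beginning 169, 104 and 95 bases before the start, and ANKRD1 held 2. AMOTL2 and AJUBA have 2 windows each, of which 1 holds a copy, and only that window is shown. The copy in LATS2 begins 9 bases after its start. AMOTL1 held none. The 250 bases before the start are shown 5′ to 3′ for the genes whose level with LCL521 was lower (CTGF, AMOTL2, AJUBA), for ANKRD1, and for AMOTL1 and YAP1, whose levels stayed close, with the TEAD and AP-1 letters in capitals. All are on the minus strand except AMOTL1 and YAP1. A match describes the letters in the window and does not show binding.
CTGF (chr6:131951373-131951622): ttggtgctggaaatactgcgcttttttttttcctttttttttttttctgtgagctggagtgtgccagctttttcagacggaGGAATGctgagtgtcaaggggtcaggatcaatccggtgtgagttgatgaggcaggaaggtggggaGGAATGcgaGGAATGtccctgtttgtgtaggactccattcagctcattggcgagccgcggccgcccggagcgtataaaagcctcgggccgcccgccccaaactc
AMOTL2 (chr3:134374448-134374697): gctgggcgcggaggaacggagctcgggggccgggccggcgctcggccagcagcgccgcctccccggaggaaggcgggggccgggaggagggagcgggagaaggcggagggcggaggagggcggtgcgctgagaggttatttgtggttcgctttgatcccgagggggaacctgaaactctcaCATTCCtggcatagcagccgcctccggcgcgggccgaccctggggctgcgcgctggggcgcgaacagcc
AJUBA (chr14:22976843-22977092): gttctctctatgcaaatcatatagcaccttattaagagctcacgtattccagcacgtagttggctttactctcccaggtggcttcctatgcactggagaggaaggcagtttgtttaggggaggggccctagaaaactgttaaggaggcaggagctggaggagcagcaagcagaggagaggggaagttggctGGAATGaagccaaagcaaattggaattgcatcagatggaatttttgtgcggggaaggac
ANKRD1 (chr10:90921088-90921337): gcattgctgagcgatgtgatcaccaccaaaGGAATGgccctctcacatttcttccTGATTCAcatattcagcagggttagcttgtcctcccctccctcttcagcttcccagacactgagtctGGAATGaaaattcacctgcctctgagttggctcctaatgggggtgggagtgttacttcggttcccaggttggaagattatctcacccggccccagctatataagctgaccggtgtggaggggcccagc
AMOTL1 (chr11:94768106-94768355): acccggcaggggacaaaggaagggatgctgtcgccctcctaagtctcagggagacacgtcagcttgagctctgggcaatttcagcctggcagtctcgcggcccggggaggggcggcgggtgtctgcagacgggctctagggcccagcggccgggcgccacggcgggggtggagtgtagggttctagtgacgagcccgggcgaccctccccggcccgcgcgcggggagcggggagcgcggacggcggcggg
YAP1 (chr11:102110197-102110446): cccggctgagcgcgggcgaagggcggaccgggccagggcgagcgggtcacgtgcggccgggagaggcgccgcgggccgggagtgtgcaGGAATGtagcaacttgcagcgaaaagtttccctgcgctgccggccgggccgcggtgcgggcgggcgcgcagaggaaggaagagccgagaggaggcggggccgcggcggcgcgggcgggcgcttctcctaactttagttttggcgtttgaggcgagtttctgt

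LCL521 was followed in 5 of the 10 genes by a lower level in both populations. CTGF, CYR61, AJUBA and DLC1 were lower with the drug in all 6 same-numbered pairs of parental cells and in all 6 of PGCC, and AMOTL2 in 5 pairs of parental cells and in all 6 of PGCC. YAP1, TEAD1, AMOTL1 and LATS2 were not lower in most pairs of both populations, and ANKRD1 had too few counts for its pairs to be read. Of all 14555 genes kept over the 24 libraries, 4.49% were lower in all 6 pairs of parental cells, 4.16% in all 6 of PGCC and 0.886% in both; these shares stand beside the members' counts of 4, 5 and 4 as background, and nothing is read from the comparison because this contrast chose the genes. The median over the 10 genes of the mean paired difference was -0.25 in parental cells and -0.16 in PGCC, against -0.0042 and -0.0024 over all genes. Without ANKRD1 the medians over the other 9 genes were -0.49 and -0.27. In no gene did the 6 libraries with LCL521 lie entirely below or above the 6 without it. The share of all genes without such overlap was not counted for LCL521, so nothing is read from this. In a bulk library, fewer cells that express a gene and less RNA of it per cell cannot be told apart.

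**Figure D1:**
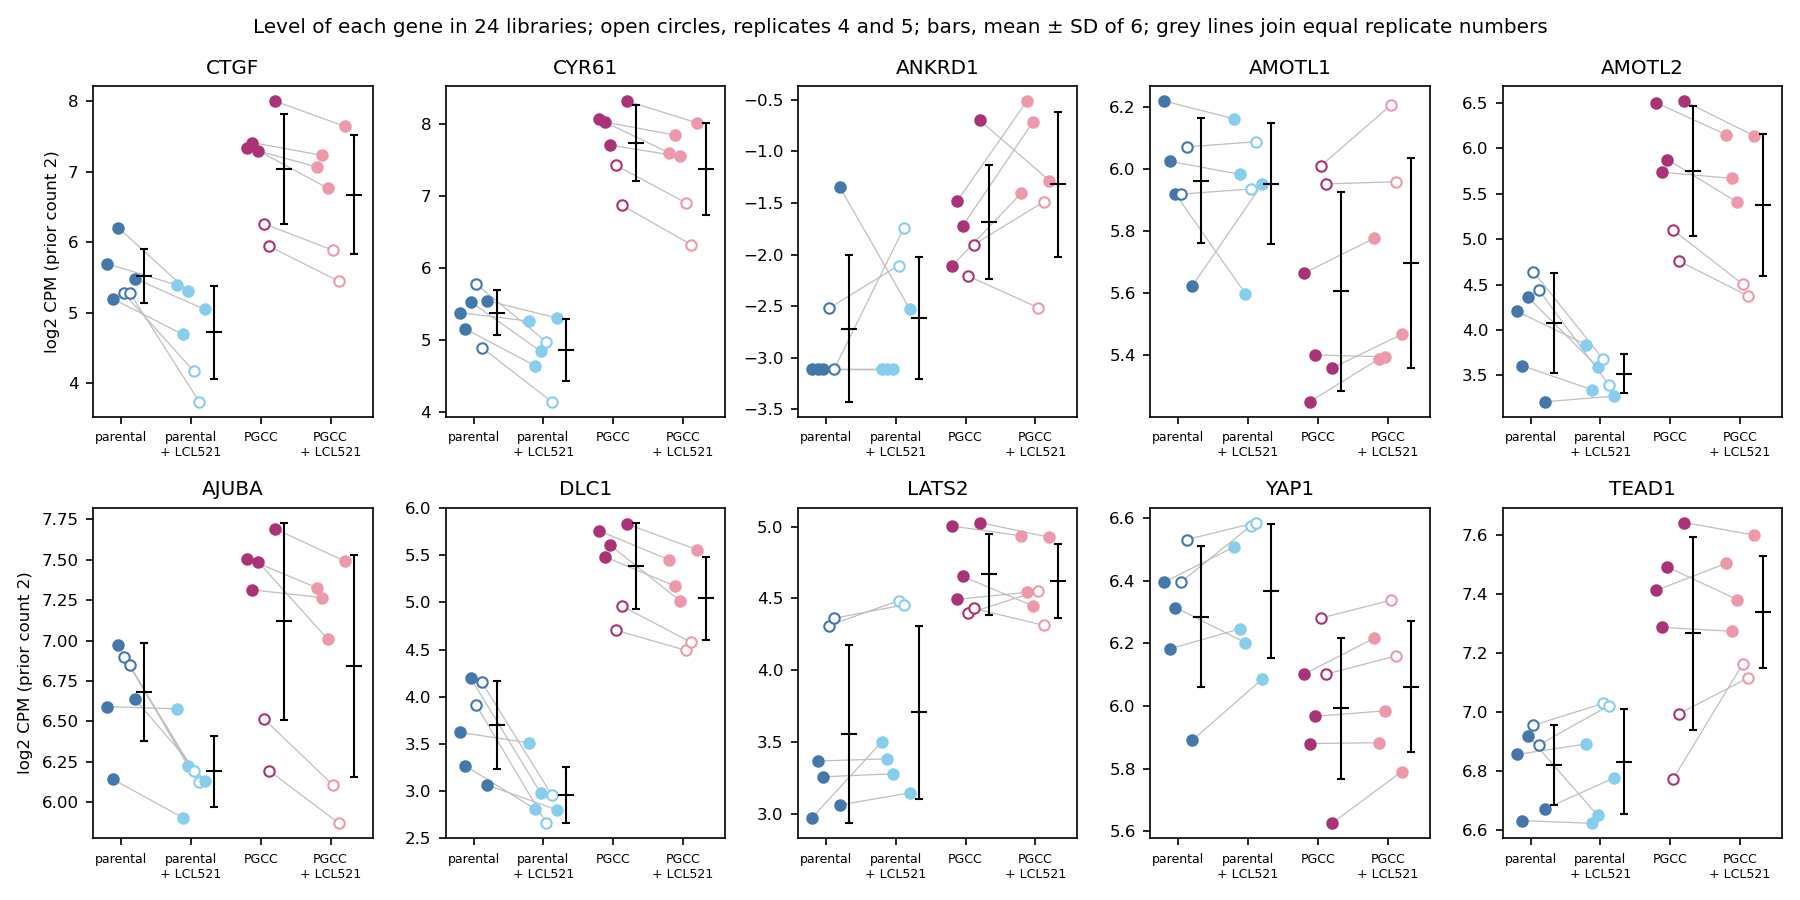
Level of each of the 10 genes in all 24 libraries (vertical axis, log2 CPM with a prior count of 2, a separate range for each gene; horizontal axis, the 4 conditions). Grey lines join libraries of the same replicate number, open circles are replicates 4 and 5, and bars are the mean ± SD of 6 libraries; CTGF and CYR61 slope downward with LCL521 in every pair and are higher in PGCC, while the pairs of YAP1 differ by at most 0.20 with LCL521.

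CTGF encodes a secreted matricellular protein that binds integrins and growth factors. In parental cells its level was 36.5 CPM in the lowest, 41.7 in the median and 73.6 in the highest library, and with LCL521 it was 13.2, 29.3 and 41.8. In PGCC the corresponding levels were 61.4, 160 and 257 CPM, and with LCL521 43.4, 122 and 200. The ranges with and without the drug overlapped in both populations, but every pair pointed the same way. The paired differences in log2 CPM were -0.30, -0.51, -0.90, -1.11, -1.55 and -0.44 in parental replicates 1 to 6, with a mean of -0.80 ± 0.48 (SD, n = 6), or 0.574 times the level without it. In PGCC they lay between -0.53 and -0.18, with a mean of -0.37 ± 0.13 (SD, n = 6), or 0.774 times the level without it. CTGF is listed on chromosome 6 between 132269316 and 132272513 (hg19, the build that the submitters' processing notes name).

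CYR61, a close relative of CTGF that is also secreted to the matrix, had a similar pattern. Its level was 29.7, 43.8 and 54.6 CPM in the lowest, median and highest parental library and 17.6, 30.0 and 39.4 with LCL521. In PGCC it was 117, 234 and 318 CPM, and with LCL521 79.9, 190 and 258. The mean paired difference was -0.52 ± 0.28 in parental cells and -0.36 ± 0.17 in PGCC (SD, n = 6 each). CYR61 had the narrower range of differences of these secreted targets in parental cells, from -0.80 to -0.12.

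Among the junction and cytoskeleton genes, AMOTL2, AJUBA and DLC1 were lower with LCL521. AMOTL2, an angiomotin family scaffold of junctions that holds YAP outside the nucleus, had 9.14, 19.4 and 24.8 CPM in the lowest, median and highest parental library and 9.54, 11.2 and 14.2 with LCL521. In PGCC it had 27.0, 55.9 and 91.7 CPM, and with LCL521 20.6, 46.5 and 71.0. The mean paired difference of AMOTL2 was -0.56 ± 0.44 in parental cells and -0.38 ± 0.18 in PGCC (SD, n = 6 each). Parental replicate 6 was the only pair of AMOTL2 that was not lower, at 0.06, and the parental libraries with the drug lay in a narrower range than those without it.

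AJUBA, a LIM protein of adherens junctions that restrains LATS kinases, had 70.5, 107 and 125 CPM in the lowest, median and highest parental library and 59.8, 71.5 and 95.4 with LCL521. In PGCC its levels were 73.1, 169 and 207 CPM, and with LCL521 58.3, 141 and 180. The mean paired difference of AJUBA was -0.49 ± 0.30 in parental cells and -0.27 ± 0.16 in PGCC (SD, n = 6 each). Every AJUBA pair was lower, although parental replicate 1 differed by -0.01.

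DLC1, a tumor suppressor protein at focal adhesions, had 8.24, 13.6 and 18.2 CPM in the lowest, median and highest parental library and 6.22, 7.28 and 11.3 with LCL521. In PGCC it stood at 26.0, 46.6 and 56.8 CPM, and with LCL521 at 22.4, 34.1 and 47.1. DLC1 differed by -0.75 ± 0.53 in parental cells, or 0.595 times the level without the drug, and by -0.35 ± 0.13 in PGCC (SD, n = 6 each). The ranges overlapped in both populations, and 5 of the 6 parental libraries with LCL521 lay below the lowest parental library without it.

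The genes for YAP itself, for TEAD1 and for the other regulators did not share this pattern. YAP1 had 59.2, 81.8 and 92.4 CPM in the lowest, median and highest parental library and 67.8, 83.3 and 95.9 with LCL521, and in PGCC 49.2, 65.5 and 77.6 CPM and 55.2, 67.3 and 80.7 with LCL521. Its mean paired difference was 0.08 ± 0.11 in parental cells and 0.07 ± 0.06 in PGCC (SD, n = 6 each). YAP1 was higher with the drug in 5 of 6 parental pairs and in 6 of 6 PGCC pairs, by at most 0.20, and its ranges overlapped almost fully. TEAD1, a DNA-binding partner of YAP, had 99.1, 117 and 124 CPM in parental cells and 98.5, 114 and 131 with LCL521. It differed by 0.01 ± 0.15 in parental cells and 0.07 ± 0.18 in PGCC (SD, n = 6 each), with pairs on both sides of 0 in each population.

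AMOTL1, the paralog of AMOTL2, had 49.1, 62.7 and 74.3 CPM in the lowest, median and highest parental library and 48.3, 62.4 and 71.4 with LCL521. It differed by -0.01 ± 0.21 in parental cells and 0.09 ± 0.08 in PGCC (SD, n = 6 each), so the mean differences of these paralogs were apart by more than either SD in PGCC. LATS2, the Hippo kinase, had 7.73, 9.83 and 20.5 CPM in parental cells and 8.74, 10.8 and 22.3 with LCL521. It was higher with the drug in all 6 parental pairs with a mean of 0.15 ± 0.19, and replicate 1 alone reached 0.53. In PGCC the LATS2 mean was -0.05 ± 0.13, with 4 of 6 pairs lower (SD, n = 6 each).

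ANKRD1, a nuclear ankyrin repeat protein and a standard YAP target, was close to the detection floor in these cells. Parental libraries held 0 to 4 counts of it, or 0 to 3 after LCL521, and sums of 5 and 6. PGCC libraries held 2 to 9 counts, or 1 to 10 after LCL521, and sums of 23 and 34. The ratio of summed ANKRD1 counts with LCL521 to those without, scaled by library size, was 1.21 in parental cells (95% exact Poisson interval 0.308 to 5.01) and 1.52 in PGCC (0.868 to 2.70), and these intervals cover counting error only. A difference of the size seen in CTGF was not detectable in ANKRD1 in parental cells at this depth. In PGCC the interval lay above 0.774, the mean paired ratio of CTGF there, but it leaves out variation between libraries.

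**Figure D2:**
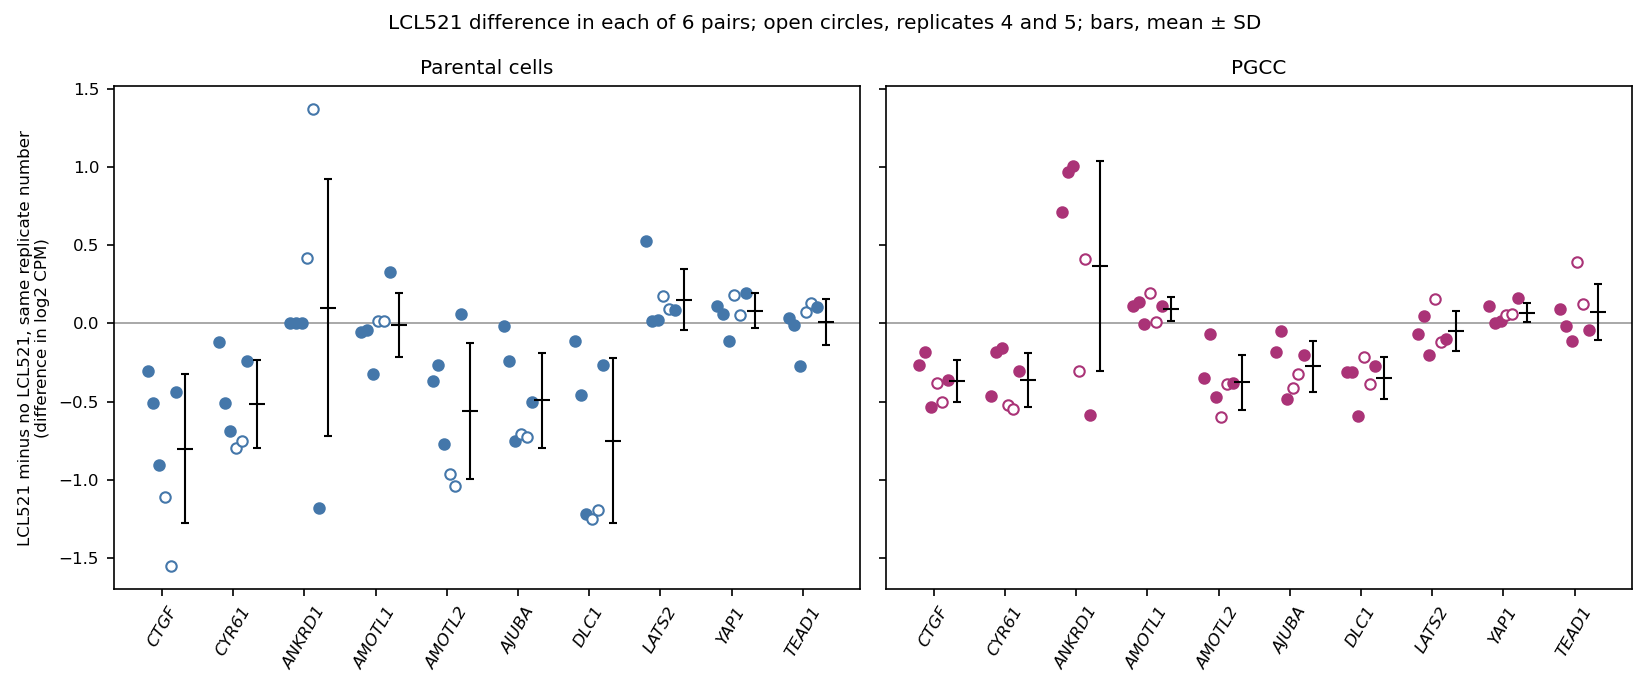
Difference in log2 CPM between the library with LCL521 and the library without it of the same replicate number (vertical axis), for the 10 genes in parental cells (left) and PGCC (right). Open circles are replicates 4 and 5 and bars are the mean ± SD of 6 pairs; CTGF, CYR61, AMOTL2, AJUBA and DLC1 lie below 0 with a wider spread in parental cells, and ANKRD1 scatters around 0.

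The spread in parental cells followed the replicate numbers. In replicates 4 and 5 the mean difference with LCL521 was -1.33 for CTGF, -0.77 for CYR61, -1.003 for AMOTL2, -0.72 for AJUBA and -1.22 for DLC1. In replicates 1, 2, 3 and 6 it was -0.54, -0.39, -0.34, -0.38 and -0.51 for the same genes in that order. Replicate 3 was nearer to replicates 4 and 5, with -1.22 for DLC1 and -0.75 for AJUBA. In PGCC the means for replicates 4 and 5 were -0.44 for CTGF, -0.53 for CYR61, -0.49 for AMOTL2, -0.37 for AJUBA and -0.30 for DLC1. The other 4 PGCC replicates had means of -0.34, -0.27, -0.32, -0.23 and -0.37 for these genes, so DLC1 alone was not lower in replicates 4 and 5. The effect in CTGF was smaller in PGCC than in parental cells in 6 of 6 replicates, by a mean of 0.43 ± 0.39 in log2 CPM, while DLC1 gave 0.40 ± 0.49 and CYR61 0.15 ± 0.31 (SD, n = 6 each). These differences between the populations come from the contrast that chose the genes and were not tested.

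Correlations over the 12 paired differences are given as a description only, because this contrast chose the genes. Pearson's r with CTGF was 0.902 for DLC1, 0.840 for AMOTL2, 0.832 for AJUBA and 0.758 for CYR61, against 0.125 for YAP1, 0.0616 for TEAD1 and -0.0453 for LATS2. For AMOTL1, r was 0.665 with YAP1, 0.662 with TEAD1, 0.561 with DLC1, 0.505 with AMOTL2 and 0.374 with CTGF. These values describe 12 differences, of which each replicate number supplied 1 in each population, and carry no p. The genes that were lower all had a larger mean fall in parental cells than in PGCC. The part of this offset in r was not tested.

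Further genes of the pathway, which are no members, were tested over all genes with edgeR's quasi-likelihood test and Benjamini-Hochberg adjustment at a threshold of 0.05. Without a replicate block, LCL521 in parental cells gave 0 calls among 13277 genes (0%) with 71 genes at an unadjusted p under 0.05, and DESeq2 and limma-voom also gave 0. In PGCC 1 of 14151 genes was called (0.00707%), with 6 calls by DESeq2 and 0 by limma-voom. With the replicate number as a block, which sets each library against those harvested with it, 115 genes were called in parental cells (0.866%) and 234 in PGCC (1.65%). Of 15 further YAP and TEAD targets tested, none was called in either population without the block. With the block, 1 was lower in parental cells and 2 were lower in PGCC, and none was higher.

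TGFB2, the gene of a transforming growth factor beta ligand, fell in both populations with the block. Its mean level was 27.9 ± 11.5 CPM in parental cells and 19.1 ± 8.27 with LCL521 (SD, n = 6 each), and its log2 fold change was -0.55 ± 0.08 (SE; edgeR with block, adjusted p = 0.00713). In PGCC the TGFB2 log2 fold change was -0.35 ± 0.07 (SE; edgeR with block, adjusted p = 0.00362), with 6 of 6 pairs lower in each population. The TGFB2 difference was -0.48 in parental replicates 1, 2, 3 and 6 and -0.77 in replicates 4 and 5, and in PGCC -0.44 and -0.09. With the block but without replicates 4 and 5, 0 genes of the list were called in parental cells and 2 in PGCC. IGFBP3, a secreted binding protein of insulin-like growth factors, fell by 0.17 ± 0.04 in PGCC (log2, SE; edgeR with block, adjusted p = 0.0387). In parental cells the IGFBP3 estimate was -0.22 ± 0.07 and did not pass (edgeR with block, adjusted p = 0.17). In the fit without the block, the list as a whole had a median log2 fold change of -0.07 in parental cells and -0.09 in PGCC. In that fit 11 of 15 genes lay below 0 in each population, and the medians over all genes tested were -0.000206 and -0.00298. The share of all genes below 0 was not counted, so nothing is read from the 11.

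**Figure D3:**
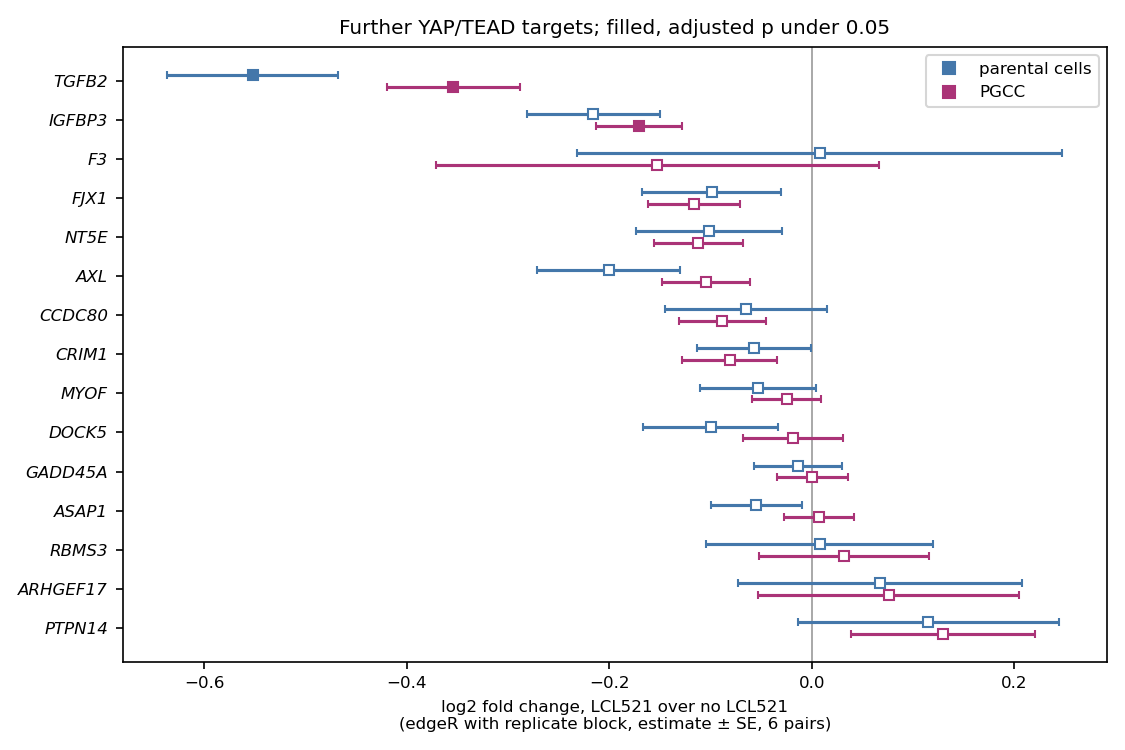
Log2 fold change with LCL521 (horizontal axis, edgeR estimate with replicate block ± SE, 6 pairs) of the 15 further YAP and TEAD targets tested, which are no members (vertical axis), in parental cells (blue) and PGCC (magenta). Filled squares passed an adjusted p of 0.05: TGFB2 in both populations and IGFBP3 in PGCC.

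For the other lists, calls with LCL521 are given with the block, under which 0.866% of all genes were called in parental cells and 1.65% in PGCC. With lists of this size the counts are no result about the lists. Of 23 cell junction genes tested, none was called in parental cells, while in PGCC the tight junction gene CLDN1 fell by 0.33 ± 0.05 (log2, SE; edgeR with block, adjusted p = 0.000934) and CLDN4 rose by 0.17 ± 0.03 (edgeR with block, adjusted p = 0.00771). CLDN1 was lower in 6 of 6 PGCC pairs and in 5 of 6 parental pairs, and its parental estimate of -0.38 ± 0.10 did not pass (edgeR with block, adjusted p = 0.078). No call was made among 25 Hippo pathway genes or 17 targets of SRF and MRTF and actin genes in either population. Of the 17 SRF and actin genes, 16 had an estimate below 0 in parental cells and 10 in PGCC in the fit without the block. Their medians were -0.08 and -0.02, against -0.000206 and -0.00298 over all genes tested. None of them passed in that fit. The share of all genes below 0 was not counted, so nothing is read from this.

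PGCC had higher levels of most of these genes than parental cells, a contrast that the choice of genes did not use. Without LCL521, 6 of the 9 members tested were called, all higher in PGCC, against 47.4% of 13812 genes. With the replicate block 8 of 9 were called, 6 higher and 2 lower, against 56.2% of all genes. The median log2 fold change of the 9 members was 1.03, against -0.03 for all genes tested. In 4 of the 10 genes every PGCC library lay above every parental library, as did 14.3% of all genes. Scaling by library totals in place of TMM moved the share of higher calls over all genes from 48.7% to 60.2%, and left all 6 members called and higher. Of the fibroblast markers, the summed level was 50.9 to 133 CPM in parental libraries and 82.8 to 209 in PGCC, mostly COL1A2, while DCN and LUM held at most 11 counts in any library. The immune markers summed to 0.464 to 2.97 CPM in parental libraries and 2.84 to 4.43 in PGCC, mostly PTPRC. The part of either list in these differences was not tested.

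Of the secreted targets, both genes tested rose, and CYR61 had the largest estimate of the 9 members. CYR61 rose from 42.3 ± 8.84 CPM in parental cells to 223 ± 72.5 in PGCC (SD, n = 6 each), without overlap between the groups, a log2 fold change of 2.41 ± 0.22 (SE; edgeR adjusted p = 1.43e-06). CTGF rose from 47.3 ± 14.0 to 147 ± 71.0 CPM, a log2 fold change of 1.65 ± 0.31 (SE; edgeR adjusted p = 0.000566), and was higher in 6 of 6 pairs. The ranges of CTGF overlapped because PGCC replicate 5, at 61.4 CPM, lay below the highest parental library. In replicates 4 and 5 the rise of CTGF was 0.82 on the log2 scale, against 1.87 in the other 4. ANKRD1 failed the count filter, and its summed counts, scaled by library size, were 4.32 times as high in PGCC as in parental cells (95% exact Poisson interval 1.61 to 14.5, counting error only).

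The junction and feedback genes rose by different amounts. AMOTL2 rose from 17.7 ± 5.98 to 59.2 ± 27.3 CPM, a log2 fold change of 1.75 ± 0.32 (SE; edgeR adjusted p = 0.000494). DLC1 rose from 13.5 ± 4.17 to 43.5 ± 12.5 CPM, a log2 fold change of 1.70 ± 0.24 (SE; edgeR adjusted p = 5.54e-05). Neither gene overlapped between the groups. LATS2 rose from 12.6 ± 5.85 to 25.7 ± 5.26 CPM, a log2 fold change of 1.03 ± 0.26 (SE; edgeR adjusted p = 0.00451), also without overlap, though by a margin of less than 1 CPM. TEAD1 rose from 113 ± 10.4 to 157 ± 33.7 CPM, a log2 fold change of 0.48 ± 0.14 (SE; edgeR adjusted p = 0.00964).

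AJUBA, AMOTL1 and YAP1 did not pass without the block. AJUBA gave a log2 fold change of 0.52 ± 0.24 (SE; edgeR adjusted p = 0.0829) and did not pass with the block either (0.45, edgeR adjusted p = 0.149), but passed with scaling by library totals (0.61, edgeR adjusted p = 0.0441). The gene was not uniform over replicates, since it was higher in PGCC in replicates 1, 2, 3 and 6 and lower in replicates 4 and 5. Without replicates 4 and 5 its log2 fold change was 0.91 and passed (edgeR adjusted p = 0.000146). It also passed without replicate 4 alone (0.67, edgeR adjusted p = 0.0356) and without replicate 5 alone (0.70, edgeR adjusted p = 0.0159). Replicates 4 and 5 are those in which AJUBA was lower, so the passes without them are no added support. YAP1 was lower in PGCC in 6 of 6 pairs, with a log2 fold change of -0.29 ± 0.12 (SE; edgeR adjusted p = 0.0602) that passed with the replicate block (edgeR adjusted p = 0.00416). YAP1 also passed without replicate 6 (-0.29, edgeR adjusted p = 0.0292). AMOTL1 gave -0.33 ± 0.14 (SE; edgeR adjusted p = 0.0617), and passed with the block (edgeR adjusted p = 0.021) and without replicate 4 (-0.43, edgeR adjusted p = 0.0268). The paralogs AMOTL1 and AMOTL2 thus lay on opposite sides of 0.

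Replicates 4 and 5 differed from the rest in this contrast too, through both the parental and the PGCC libraries. LATS2 had 19.7 and 20.5 CPM in parental replicates 4 and 5 and between 7.73 and 10.2 CPM in the other 4. In PGCC, replicates 4 and 5 had 91.5 and 73.1 CPM of AJUBA, 34.2 and 27.0 of AMOTL2, 26.0 and 31.1 of DLC1. They had 109 and 127 CPM of TEAD1. The other PGCC libraries had at least 159, 53.2, 44.7 and 156 CPM of these genes in that order. The difference between PGCC and parental cells in replicates 4 and 5 was 0.08 for LATS2, 0.39 for AMOTL2, 0.80 for DLC1, -0.04 for TEAD1 and -0.52 for AJUBA in log2 CPM. In replicates 1, 2, 3 and 6 it was 1.63, 2.31, 2.13, 0.69 and 0.92 for the same genes in that order. CYR61 kept most of its difference, at 1.81 against 2.62. The rises of LATS2, AMOTL2 and TEAD1 thus came mainly from 4 of the 6 replicates. Without replicates 4 and 5 their log2 fold changes were 1.67, 2.31 and 0.71, and all passed (edgeR adjusted p = 1.15e-06, 4.72e-06 and 4.52e-05). Leaving out the replicates with the smallest differences raises these estimates by itself, so the passes are no added support.

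**Figure D4:**
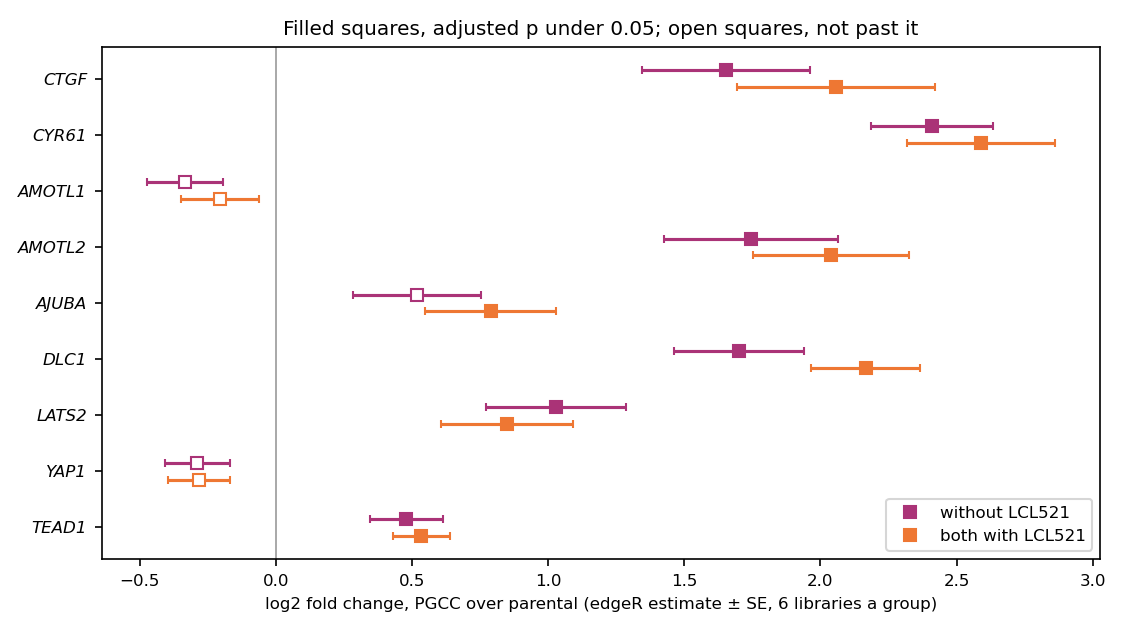
Log2 fold change of PGCC over parental cells (horizontal axis, edgeR estimate ± SE, 6 libraries a group) for the 9 genes tested (vertical axis), without LCL521 (magenta) and with both populations in LCL521 (orange). Filled squares passed an adjusted p of 0.05; CYR61 is highest, at 2.41 and 2.59, and AMOTL1 and YAP1 lie below 0.

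The same comparison among the libraries with LCL521 gave 7 of 9 members called, all higher in PGCC, against 48.9% of 13818 genes. It shares no library with the first, but its libraries come from the same 6 experiments, so it is no independent repeat. With the block 8 were called, 7 higher and 1 lower, against 56.3%. CTGF rose from 28.5 ± 11.6 to 116 ± 58.7 CPM (SD, n = 6 each), a log2 fold change of 2.06 ± 0.36 (SE; edgeR adjusted p = 0.000335), and the groups did not overlap. CYR61 gave 2.59 ± 0.27 (edgeR adjusted p = 3.14e-06), DLC1 2.17 ± 0.20 (edgeR adjusted p = 1.07e-06) and AMOTL2 2.04 ± 0.29 (edgeR adjusted p = 4.74e-05). LATS2 gave 0.85 ± 0.24 (edgeR adjusted p = 0.00971) and TEAD1 0.54 ± 0.10 (edgeR adjusted p = 0.000754). AJUBA passed here with 0.79 ± 0.24 (edgeR adjusted p = 0.014), and did not pass without replicate 2 (0.67, edgeR adjusted p = 0.0675) or without replicate 6 (0.63, edgeR adjusted p = 0.0674). AMOTL1 gave -0.20 ± 0.14 (edgeR adjusted p = 0.248). YAP1 gave -0.28 ± 0.11 (edgeR adjusted p = 0.0548) and passed with the block (edgeR adjusted p = 0.00285) and without replicate 6 (-0.30, edgeR adjusted p = 0.048). The summed ANKRD1 counts, scaled by library size, were 5.41 times as high in PGCC (95% exact Poisson interval 2.25 to 15.8).

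Genes of the other lists were called in both directions between PGCC and parental cells. Of the 15 further YAP and TEAD targets tested, 7 rose and none fell. With the block 10 rose and 1 fell, where 56.2% of all genes were called. Without the block the share called in each list of this paragraph lay near or below the 47.4% of all genes, so these counts are no result about the lists. CCDC80, an extracellular matrix protein, rose from 12.1 ± 2.06 to 46.9 ± 7.21 CPM with a log2 fold change of 1.96 ± 0.14 (SE), and NT5E, the ectonucleotidase CD73, rose by 1.41 ± 0.16. Of 25 Hippo pathway genes 6 rose, FRMD6 (1.35 ± 0.28) and the kinase gene MAP4K4 (1.27 ± 0.10) most, and 4 fell, TEAD3 (-0.55 ± 0.14) and WWC2 (-0.53 ± 0.15) most. TEAD3 therefore fell where its paralog TEAD1 rose. Of 23 junction genes 7 rose, CGN (1.16 ± 0.43) and plakoglobin, JUP (0.80 ± 0.18) most, and 3 fell, the plakophilin PKP3 (-0.99 ± 0.09) and the polarity gene PARD6B (-0.44 ± 0.16) most. Of 17 SRF and actin genes 3 rose, FOS (1.48 ± 0.39) and TPM1 (1.04 ± 0.29) most, and 3 fell, ZYX (-0.82 ± 0.07) and ACTB (-0.53 ± 0.18) most. The edgeR adjusted p of these named genes was at most 0.0371.

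Per kilobase of gene length, the members spanned a wide range of levels. In parental cells the median was 25.2 CPM per kilobase for AJUBA, 19.1 for CYR61, 17.8 for CTGF, 15.2 for YAP1 and 12.4 for TEAD1. It was 6.99 for AMOTL1, 4.29 for AMOTL2, 1.82 for DLC1, 1.78 for LATS2 and 0 for ANKRD1. Neighbours in this order had overlapping ranges over the 6 parental libraries, from AJUBA to TEAD1 and from AMOTL1 to LATS2. Such ranges do not compare the genes within the same library, and the order of neighbours was not tested. In PGCC the medians of CYR61, CTGF and AJUBA were 102, 68.3 and 39.7 CPM per kilobase, with ranges that overlapped between CYR61 and CTGF and between CTGF and AJUBA.

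The genes whose level followed the mean log2 CPM of CTGF, CYR61 and ANKRD1 most closely over the 24 libraries were IL8 (r = 0.980), NFKB2 (0.968), LRRFIP2 (0.964), FST (0.963) and FOSB (0.960), out of 10648 candidates. IL8 encodes an inflammatory chemokine and FST an activin antagonist. With ANKRD1 left out of the profile, an alternative added after the data were seen, FST came first with r = 0.987 and IL8 followed with 0.968. The mean difference with LCL521 was -0.51 in parental cells and -0.40 in PGCC for IL8, and -0.43 and -0.22 for FST. It was smaller for NFKB2 (-0.12 and -0.13), LRRFIP2 (-0.13 and -0.03) and FOSB (-0.14 and -0.0061). Over the 12 paired differences with LCL521 the closest included RP11-620J15.3 (r = 0.868), KATNAL2 (0.836), ANGPTL4 (0.820) and ZNF219 (0.810), and without ANKRD1 none of these was among the 5 closest, MCL1 (0.923) leading. These correlations span both populations, with several libraries of each replicate number, and are descriptions with no p.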

How the data were processed

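Per the labels and the study's methods, total RNA of PPC1 cells was sequenced in 24 libraries, aligned to hg19 with STAR and counted per gene with HTSeq. The values used are the authors' deposited counts, whole numbers that had not been normalized. The annotation release and strand setting are not given in the sources used here; genes overlapping the members held at most 4 counts in any library. No per-sample column was left out. The table's gene length column was used only per kilobase and in a length correction.

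The members and gene lists were chosen with earlier results of these data known. Each comparison was fitted on its 12 libraries with edgeR 4.0.16 (quasi-likelihood test, TMM, filterByExpr with a minimum count of 10 and a total of 15) in R 4.3.3, with Benjamini-Hochberg adjustment over all genes tested and a threshold of 0.05. DESeq2 1.42.0, limma 3.58.1 (voom), other scalings and filters, left-out replicates and the replicate block were alternatives. The block rests on the parallel harvest of all conditions in each of 6 experiments: deviations of same-numbered libraries correlated with r of at least 0.171 in each comparison, with medians from 0.272 to 0.652. The fit was tested on simulated data.

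Named genes were the 10 members, the list genes past the threshold with LCL521 under the block (at most 6 per list and comparison), the 2 largest rises and 2 largest falls per list between PGCC and parental cells, and the 5 genes closest in profile among those averaging 2 log2 CPM or more. Total counts of 14835246 to 19906601 per library set a floor of 3 counts; exact Poisson intervals are at 95%. The symbol F11R is listed in 2 rows, and the row with more counts was used. A few genes and 1 gene list covered by these rules are not reported here.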

Additional observations from a re-analysis of the deposited data

Results flagged for a closer look

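Of 60 groups of 6 values (each gene's log2 CPM in each condition and its LCL521 differences in each population), 4 had a library far from the other 5. Chance gives about 1 such group in 20. ANKRD1 in parental cells had a log2 CPM of -1.35 in replicate 6, with the nearest library at -2.52, on at most 4 counts. DLC1 in parental cells with LCL521 had 3.51 in replicate 1, with the nearest at 2.98. The LCL521 difference of LATS2 in parental cells was 0.53 in replicate 1, with the nearest at 0.17. The LCL521 difference of TEAD1 in parental cells was -0.27 in replicate 3, with the nearest at -0.01.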

How the results depend on the processing

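The replicate block moved the calls with LCL521 most. In parental cells, where the main setting gave 0, it gave 115 genes, 230 with a gene length correction and 3 without replicates 4 and 5. In PGCC, where the main setting gave 1, it gave 234, 255 with the length correction and 129 without replicates 4 and 5; without the block, DESeq2 gave 6, and limma-voom, a joint fit of all 24 libraries and leaving out replicates 4 and 5 gave 0. Leaving out single replicates in PGCC gave between 0 and 1 genes. The further YAP and TEAD targets called with LCL521 went from 0 to 1 in parental cells with the block, with or without the length correction, and from 0 to 2 in PGCC with the block, with it, and with the block without replicates 4 and 5.

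The members' median LCL521 difference was -0.48 in parental cells and -0.27 in PGCC in the edgeR estimate with replicate block. That fit has no ANKRD1; over the same 9 genes the paired means gave -0.49 and -0.27. Leaving out single replicates gave medians between -0.30 and -0.19 in parental cells and between -0.19 and -0.12 in PGCC. Of the other values of single genes, the mean LCL521 differences moved by less than their SD under every alternative run. Leaving out replicates could hardly move a mean by more, so for those runs this says little. Without replicates 4 and 5 the parental mean went from -0.80 to -0.54 for CTGF and from -0.49 to -0.38 for AJUBA. No fold change between PGCC and parental cells changed its sign under the alternatives run, and the number of members called stayed between 6 and 9. CTGF, CYR61, AMOTL2, DLC1, LATS2 and TEAD1 passed under every alternative run in both comparisons, LATS2 among the libraries with LCL521 barely so without replicate 1 (edgeR adjusted p = 0.0499). The prior count matters only for ANKRD1, whose depth allows no paired statement.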
